A study of Homo sapiens with 8 samples.

Results

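AFAP1-AS1 is a long non-coding RNA read from the strand opposite AFAP1, the gene of an actin filament-associated protein. Its knockdown was compared here with the matching knockdown control in A549, a human cell line established from a lung adenocarcinoma. The comparison uses 4 of the 8 RNA-seq libraries of the series: 2 of cells with AFAP1-AS1 knocked down and 2 of the negative control for it. The sample titles call these ASO and ASONC. ASO commonly abbreviates antisense oligonucleotide, and ASONC was therefore read as the control oligonucleotide, although the labels do not spell either out. The other 4 libraries are 2 of A549 with an empty vector and 2 overexpressing AFAP1-AS1, and the vector libraries are given below as a second reference, from cells whose labels name no oligonucleotide. The sources used here do not give the oligonucleotides' sequences, dose or exposure time, nor whether replicate libraries came from separate cultures. With 2 libraries a group, p-values set a difference only against the spread between replicate libraries, pooled over all 4 groups. That spread may be technical. The level of AFAP1-AS1 itself was not analysed here, so the depth of the knockdown carries no value.

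An antisense oligonucleotide of the gapmer type pairs with its target RNA and recruits RNase H, which cuts the RNA strand. Short nucleic acids delivered into cells can also meet the sensors of antiviral defence. RIG-I (DDX58) and MDA5 (IFIH1) recognise foreign RNA and signal through the adaptor MAVS to IRF3 and NF-kB, which switch on the interferon beta and lambda genes. Secreted interferon then signals through JAK1 and TYK2 to a transcription factor complex that holds STAT2 and IRF9. That complex binds the interferon-stimulated response element in the promoters of effector genes such as the IFIT, OAS and MX families. Damage and stress use a second, faster layer of immediate early genes, among them FOS, EGR1 and ATF3.

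The authors' table gives FPKM, fragments scaled by transcript length and library size, for 17056 genes. Whole reads recovered from the values summed to between 33662221 and 37508996 per library. A gene was tested if its mean over all 8 libraries was at least 1 FPKM, which 10648 genes met. This mean includes the knockdown control, so a gene high only there can pass, and such a gene can only show a fall. Differences are log2 fold changes of FPKM + 1, knockdown minus control, given with their standard error, and this scale understates the change of genes with low values. A gene is called higher or lower where the adjusted p from limma was below 0.05. The knockdown control stood apart from the other libraries. It had 1435 and 1341 genes at 0, against 2270 and 2264 in the knockdown and 2323 and 2327 in the vector libraries, and 198 genes had reads in both knockdown control libraries and in no other library. The main results are therefore set beside the vector control as well. That second comparison shares the knockdown libraries with the first and crosses from the oligonucleotide arm to the vector arm, so any difference in how the arms were handled cannot be told apart from the knockdown in it. All RNA here is bulk RNA, in which fewer cells expressing a gene and less RNA per cell cannot be told apart.

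The libraries carried the keratins of an epithelial line. KRT8 was at 1317 and 1308 FPKM in the knockdown control, 1310 and 1254 in the knockdown and 1093 and 1135 in the vector libraries. Alveolar surfactant genes were at or near 0, with SFTPB listed at 0 in all 4 oligonucleotide libraries. Of 15 markers of blood, endothelial and fibroblast cells that the table lists, 4 passed the filter, and each of the 15 had at least 1 read in the oligonucleotide libraries. Their summed level was 100 and 100.5 FPKM in the knockdown control, 71.8 and 70.7 in the knockdown and 55.0 and 56.0 in the vector libraries. Of the 4, ITGAM, an integrin chain of myeloid cells, fell from 5.92 and 5.41 FPKM to 1.63 and 1.58 (log2 fold change -1.35 ± 0.09, adjusted p = 1.43e-06). CD68, a lysosomal protein, fell from 89.2 and 90.1 to 65.4 and 64.04 (adjusted p = 9.4e-06). The others were not called: CD14, a monocyte receptor, had a log2 fold change of 0.26 ± 0.09 (adjusted p = 0.057) and COL1A1, a fibroblast collagen, of -0.22 ± 0.09 (adjusted p = 0.111). The pan-leukocyte marker PTPRC, which defines blood cells, had 1 read in 1 control library and none in the other 3 oligonucleotide libraries. The part of other cells in the differences below was not tested.

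Between knockdown and knockdown control 2369 of the 10648 genes tested were called, 22.2% of them: 1204 higher (11.3%) and 1165 lower (10.9%). Each count of list members called against the knockdown control below is to be read beside these shares. The 2 directions were alike in number and unlike in size. All 76 called genes (0.714%) that differed by at least 1 on the log2 scale were lower in the knockdown, and the largest called increase, of SLC2A3, was 0.71. Of these 76 genes 20 belong to the interferon lists described below. The share of these lists among all genes tested was not counted, and the lists were chosen with earlier results of these data known. In 34 of the 76 genes both knockdown libraries were also below both vector libraries, in 29 both were above them, and in 13 they overlapped. The knockdown control mean was at least 2 times the vector mean in 57 of the 76 and at least 10 times in 17. These positions and ratios were not counted over all genes tested, and the 76 were chosen for a level well below the knockdown control. The counts therefore describe these 76 genes only. Against the vector control 6700 genes were called (62.9%), 3632 higher (34.1%) and 3068 lower (28.8%). With 1 library left out the count against the knockdown control was 1494 without knockdown replicate 1, 1176 without knockdown replicate 2 and 1323 without knockdown control replicate 2. Genes called higher then numbered between 493 and 769 and genes called lower between 683 and 841. Higher genes made up 50.8% of the calls, but 66.8% after rescaling to TPM and 62.1% with median-of-ratios scaling. TPM also moved the median of all genes against the vector control from 0.03 to -0.13. Genes called against the knockdown control and given below with a standard error or an adjusted p kept that call in each alternative fit that tested them, libraries left out included, unless stated.

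**Figure D1:**
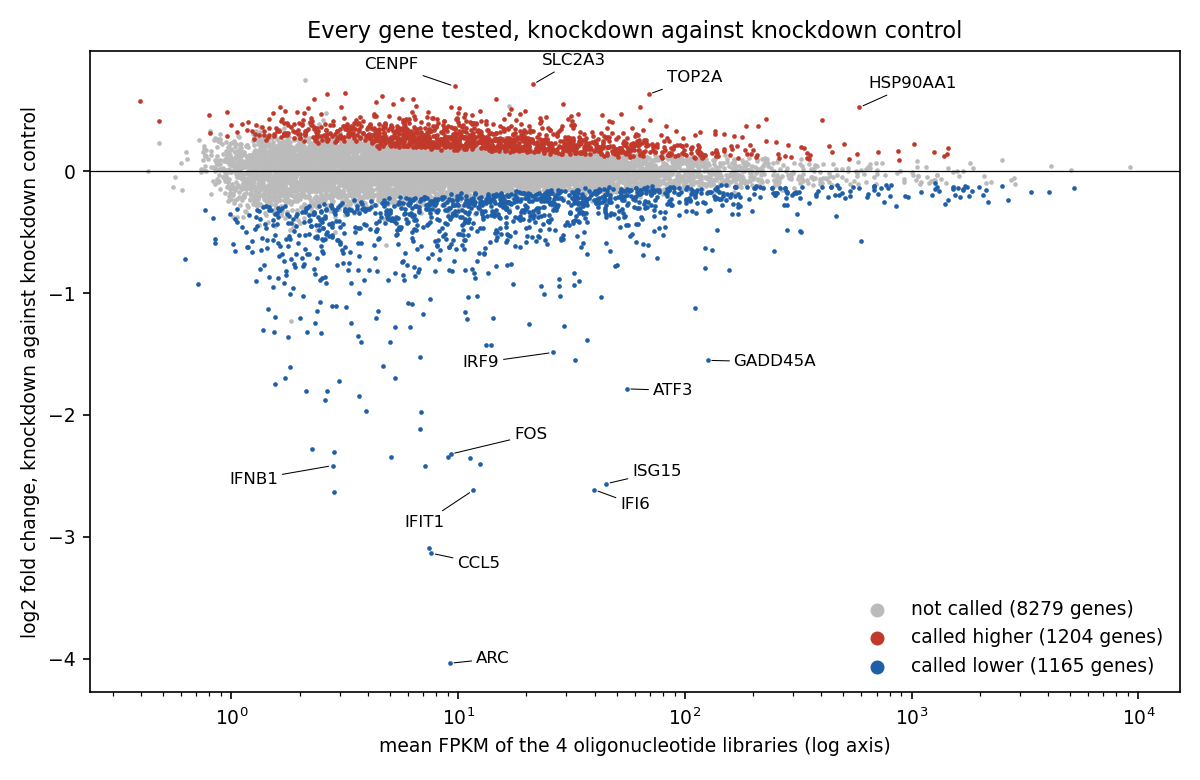
Log2 fold change of each tested gene, knockdown against knockdown control (vertical axis), against its mean FPKM over the 4 oligonucleotide libraries (horizontal log axis). Red points are the 1204 genes called higher, blue the 1165 called lower and grey the rest; no red point lies as far from 0 as the 76 blue points below -1, and ARC lies lowest at -4.04.

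Of the interferon genes, IFNB1 and IFNL1 peaked in the knockdown control. IFNB1, which encodes interferon beta, stood at 5.65 and 5.15 FPKM in the knockdown control, 0.231 and 0.167 in the knockdown and 0.283 and 0.259 in the vector libraries. IFNL1, a type III interferon, stood at 5.65 and 5.61, 0.107 and 0.0362, and 0.421 and 0.945 in the same order. For neither gene did knockdown and control libraries overlap. IFNB1 fell by 2.42 ± 0.11 (adjusted p = 3.33e-08) and IFNL1 fell by 2.63 ± 0.13 (adjusted p = 1.08e-07). Both were the only members of the interferon gene list above the filter, and both were lost to a filter at 5 FPKM. Their control libraries alone carried them over the filter, and each knockdown and vector library was below 1 FPKM. The direction of their difference is therefore partly set by the filter. Below the filter, IFNL3 was at 0.494 and 1.55 FPKM in the control, 0.0407 and 0.124 in the knockdown and 0.695 and 0.716 in the vector libraries, and IFNL2 at 0.472 and 0.286, 0 and 0.148, and 0.187 and 0.685. In both genes control and vector libraries overlapped, and the knockdown was lowest. IFNE, at 0.837 and 0.442 in the control and 0.846 and 0.419 in the knockdown, overlapped between the groups. Against the vector control IFNL1 was lower as well (-0.63 ± 0.13, adjusted p = 0.00139) and IFNB1 did not pass (-0.08, adjusted p = 0.507). Of 8 interferon receptors and Janus kinases 2 were called, 25% and near the 22.2% of all genes tested. IL10RB, a receptor chain for interferon lambda, rose by 0.19, a call lost with any of the 4 libraries left out (adjusted p between 0.0656 and 0.23). IFNGR2 fell by 0.19, a call that held without knockdown control replicate 2 and was lost without any of the other 3 (adjusted p between 0.055 and 0.292). JAK1 was at 49.7 and 49.8 FPKM in the control and 50.6 and 51.6 in the knockdown (adjusted p = 0.505).

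Among nucleic acid sensors and adaptors 8 of 17 tested genes were lower in the knockdown, beside 10.9% of all genes tested, and 1, the kinase TBK1, was higher. MDA5 (IFIH1) was at 6.93 and 8.14 FPKM in the control and 1.81 and 1.81 in the knockdown, with 6.46 and 5.58 in the vector libraries. It fell by 1.6 ± 0.10 (adjusted p = 4.41e-07). RIG-I (DDX58) was at 11.2 and 9.72 FPKM in the control, 4.89 and 4.18 in the knockdown and 10.2 and 9.98 in the vector libraries. It fell by 1.05 ± 0.08 (adjusted p = 3.67e-06). For both sensors the control libraries were close to the vector libraries and the knockdown libraries were below all 4. TRIM25, the ubiquitin ligase that activates RIG-I, fell by 0.62 ± 0.05 and EIF2AK2 (PKR), which halts translation on binding RNA, by 0.40 ± 0.06. MYD88, the adaptor of most Toll-like receptors, fell by 0.39 ± 0.06 to the level of the vector libraries (21.2 and 22.9 FPKM against 20.7 and 20.1). The adaptor MAVS was at 20.2 and 21.3 FPKM in the control and 21.4 and 23.1 in the knockdown and was not called (adjusted p = 0.253). The DNA sensor cGAS (CGAS), at 6.24 and 7.48 FPKM in the control and 7.798 and 7.77 in the knockdown, was not called either (adjusted p = 0.244). STING1, which relays the cGAS signal, was below 1 FPKM in every library.

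The transcription factors IRF7 and IRF9, which carry the interferon signal, were lowest in the knockdown. IRF7, which amplifies interferon production, was at 15.96 and 15.6 FPKM in the control, 2.97 and 1.75 in the knockdown and 6.18 and 8.43 in the vector libraries, and fell by 2.34 ± 0.15 (adjusted p = 7.85e-07). IRF9 was at 40.8 and 37.5, 14.1 and 12.5, and 22.7 and 24.1, and fell by 1.49 ± 0.07 (adjusted p = 3.79e-08). Altogether 6 of 12 tested STAT and IRF genes were lower and none was higher. Against the vector 7 were lower and 4 higher, beside 28.8% and 34.1% of all genes tested. STAT2 fell by 0.46. IRF1 fell by 0.54 and was above the vector by 0.31, whereas STAT3 (-0.06 ± 0.04), STAT6 (-0.03 ± 0.05) and IRF2 (-0.10 ± 0.08) were not called.

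The effector genes had the lowest median of the 50 lists with at least 10 tested members. Of 18 tested IFIT, OAS, MX and IFI genes 16 were lower and none was higher; their median log2 fold change was -1.10, against 0.02 over all genes tested. IFIT1, which binds viral RNA caps, was at 20.3 and 21.2 FPKM in the control, 2.73 and 2.36 in the knockdown and 12.7 and 13.6 in the vector libraries. IFI6 was at 70.4 and 67.9, 10.4 and 10.5, and 30.4 and 32.9. The knockdown libraries thus lay below both references, and the groups did not overlap in either gene. IFIT1 fell by 2.62 ± 0.07 against the control (adjusted p = 3.99e-10) and by 2.0 ± 0.07 against the vector (adjusted p = 3.92e-09). For IFI6 the log2 fold changes were -2.61 ± 0.06 and -1.51 ± 0.06. IFIT2, IFIT3, OASL and MX1 were lower too, with log2 fold changes of -2.4, -2.35, -2.42 and -1.88 against the control and of -1.52, -2.0, -1.7 and -1.51 against the vector. Against the vector control 15 of the 18 were lower, beside 28.8% of all genes, and 1 was higher.

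**Figure D2:**
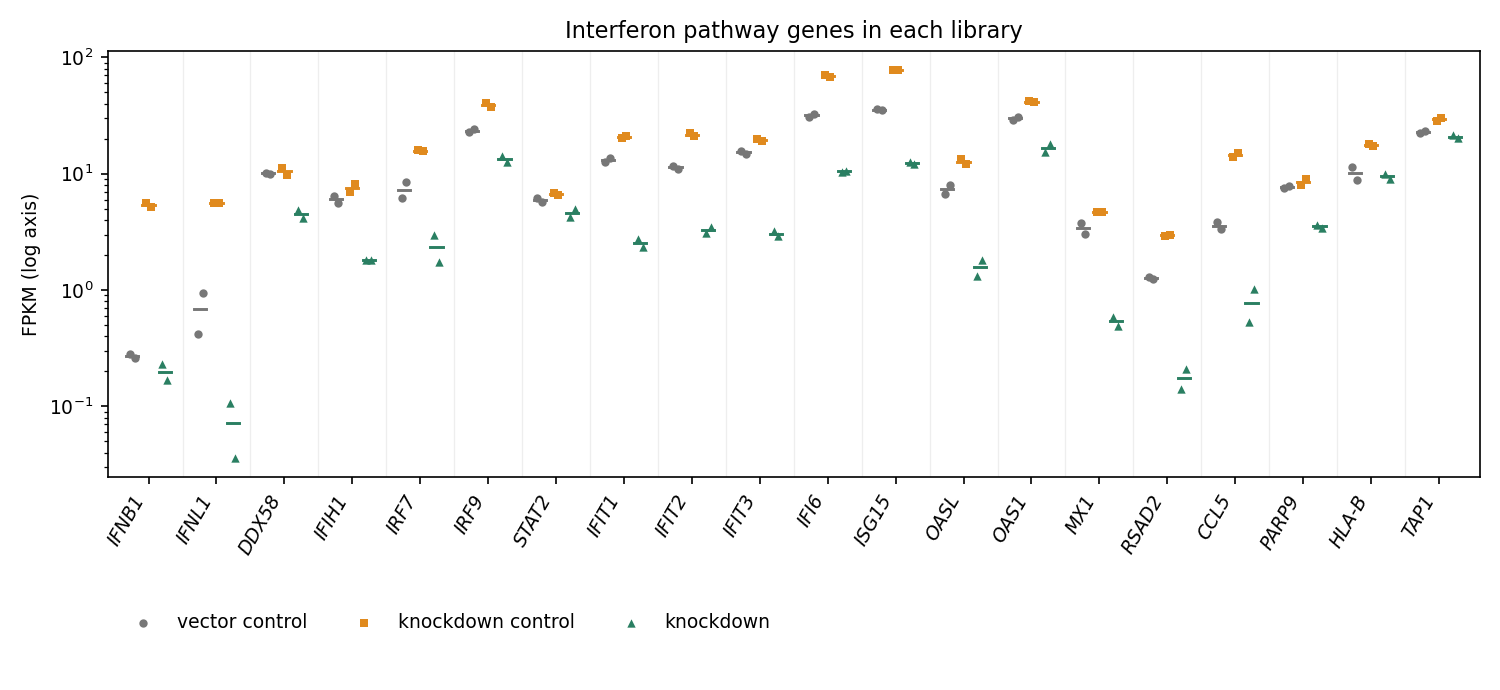
FPKM on a log axis of 20 genes of the interferon pathway in each vector control (grey circles), knockdown control (orange squares) and knockdown (green triangles) library; short bars are group means of 2 libraries. The knockdown libraries are lowest in IFIT1, IFI6 and ISG15, and the knockdown control is highest in IFNB1 and IFNL1.

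The ubiquitin-like modifier ISG15 and its enzymes were lower in all 5 genes tested, against either reference. Of all genes tested 10.9% were lower against the control and 28.8% against the vector. ISG15 was at 77.6 and 77.5 FPKM in the control, 12.5 and 12.04 in the knockdown and 35.8 and 34.9 in the vector libraries. The log2 fold change was -2.56 ± 0.05 against the control (adjusted p = 1.81e-11) and -1.45 ± 0.05 against the vector (adjusted p = 2.63e-09). The protease USP18, which removes ISG15 and damps the interferon receptor, fell by 0.71 ± 0.08 (adjusted p = 0.000123). The conjugating enzyme UBE2L6 fell by 0.41 ± 0.05, and HERC6 by 0.81 ± 0.08. Antiviral restriction factors fell in 15 of 21 tested genes and rose in none, with a median of -0.54. Only 12 of them passed a filter at 5 FPKM, and 8 of those were lower. RSAD2 (viperin), which makes a chain-terminating nucleotide, was at 2.93 and 2.96 FPKM in the control, 0.142 and 0.211 in the knockdown and 1.28 and 1.25 in the vector libraries, and fell by 1.75 ± 0.09 (adjusted p = 1.08e-07). ZC3HAV1 (ZAP), which binds CpG-rich RNA, fell by 0.76 ± 0.06 and PLSCR1 by 0.88 ± 0.05. ISG20, an exonuclease, fell by 0.84 ± 0.09 to 1.48 and 1.304 FPKM, beside 1.49 and 1.53 in the vector libraries. Of 13 PARP family genes 5 were lower, and these were PARP9, PARP10, PARP12, PARP14 and the PARP9 partner DTX3L, with log2 fold changes between -1.08 and -0.57. TNKS2, a tankyrase, was higher, a call lost with any of the 4 libraries left out (adjusted p between 0.0529 and 0.241). PARP1, the DNA break sensor, was not called (0.12 ± 0.04, adjusted p = 0.052).

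The promoters of several of these genes hold the response element in plain letters. The stretches below come from the RefSeq promoter table (GRCh38.p14, 250 bases before to 50 after the gene's start) and are shown because they belong to members with large decreases. They are written 5′ to 3′ on the gene's strand, with each match to GAAANNGAAA, or to TTTCNNTTTC, its form on the other strand, in capitals.
IFIT1 (chr10:89392501-89392535, plus strand, 122 to 88 bases before the start): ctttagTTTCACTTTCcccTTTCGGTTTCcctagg
IFIT3 (chr10:89327837-89327889, plus strand, 160 to 108 bases before the start): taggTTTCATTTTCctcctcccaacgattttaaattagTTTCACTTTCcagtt
ISG15 (chr1:1013379-1013405, plus strand, 118 to 92 bases before the start): ctcggGAAAGGGAAACCGAAActgaag
IFI6 (chr1:27672272-27672352, minus strand, 160 to 80 bases before the start): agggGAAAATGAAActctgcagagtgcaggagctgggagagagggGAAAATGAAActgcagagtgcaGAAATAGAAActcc
IFIH1 (chr2:162318822-162318848, minus strand, 164 to 138 bases before the start): ttcgcTTTCCTTTTCTGTTTCccgcgg
IFNL1 (chr19:39296188-39296214, plus strand, 219 to 193 bases before the start): aaggaTTTCAGTTTCTCTTTCcttctt
In ISG15, IFIH1 and IFNL1 the 2 matches overlap, so a run of 3 purine or pyrimidine blocks counts as 2. The motif was found in 20 of the 34 members of the interferon effector lists that have a promoter in the table, 58.82%. Across genes tested the share stepped with the size of the decrease. It was 22.41% (13 of 58) where the log2 fold change was -1 or below, 11.49% (20 of 174) between -1 and -0.5, and 4.62% (33 of 714) among smaller called decreases. Genes not called held it in 2.11%, genes called higher in 2.08% and all 27305 promoters in 3.65%. A promoter was matched for 8892 of the 10648 genes. IFIT2, OASL, IRF7 and CCL5 have no match in this window, which says only that these letters are absent from it.

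Of 19 tested genes of antigen presentation by MHC class I 14 were lower and 3, the folding factors CALR, CANX and PDIA3, were higher; with any 1 of the 4 libraries left out 1 was higher. HLA-B was at 18.1 and 17.3 FPKM in the control, 9.97 and 9.03 in the knockdown and 11.4 and 8.89 in the vector libraries, and fell by 0.83 ± 0.10 (adjusted p = 0.000168). The peptide transporter TAP1 fell by 0.47 ± 0.05 from 28.6 and 30.01 to 21.4 and 20.4 FPKM, and B2M, the common light chain, by 0.22 ± 0.03. The immunoproteasome subunit PSMB9 fell by 0.53 ± 0.08 and stayed above the vector libraries (17.1 and 15.5 FPKM against 12.3 and 13.2). HLA genes are near-identical in sequence, and the sources used here do not say how reads shared among them were counted. Against the vector control 8 of the 19 were higher and 4 lower, beside 34.1% and 28.8% of all genes tested.

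Chemokines and cytokines were lower in 10 of 16 tested genes and higher in none. CCL5, which attracts T cells, was at 13.9 and 15.03 FPKM in the control, 0.534 and 1.02 in the knockdown and 3.81 and 3.36 in the vector libraries. It fell by 3.13 ± 0.11 (adjusted p = 6.3e-09), the second largest decrease of all, and was below the vector too (-1.38 ± 0.11). CXCL2, a neutrophil attractant, was at 15.3 and 14.6, 8.66 and 7.66, and 7.71 and 8.64 in the 3 groups, so that knockdown and vector libraries overlapped and the control stood above both. It fell by 0.80 ± 0.08 (adjusted p = 2.2e-05) and did not pass against the vector (adjusted p = 0.975). CXCL1 and CXCL3, its close paralogs, fell by 0.68 and 0.72. CXCL8 (interleukin 8) stayed far above the vector level. It was at 39.3 and 41.5 FPKM in the control, 31.4 and 31.8 in the knockdown and 12.5 and 12.8 in the vector libraries, a fall of 0.34 ± 0.05 against the control (adjusted p = 0.00113) and a rise of 1.26 ± 0.05 against the vector (adjusted p = 1.46e-08). LIF (-0.07 ± 0.05) and IL18 (-0.14 ± 0.07) were not called.

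The NF-kB list fell in 14 of 22 tested genes and rose in none. TRAF1, an adaptor of TNF receptors, was at 15.03 and 15.3 FPKM in the control, 5.95 and 6.59 in the knockdown and 3.8 and 3.52 in the vector libraries, and fell by 1.16 ± 0.07 (adjusted p = 5.12e-07). TNFAIP3 (A20), a feedback inhibitor, was at 16.3 and 16.1, 9.29 and 10.4, and 8.64 and 7.39 and fell by 0.67 ± 0.08 (adjusted p = 0.00011). In both genes the knockdown lay between the control and the vector libraries. NFKB2 and RELB, subunits of the alternative pathway, fell by 0.65 ± 0.04 and 0.61 ± 0.08. NFKBIA, the classical feedback inhibitor, was high in both oligonucleotide groups (96.8 and 94.8 FPKM in the control, 91.6 and 93.4 in the knockdown and 54.7 and 53.1 in the vector libraries) and was not called between them (adjusted p = 0.431). IFNB1 and the 3 CXCL paralogs hold a match to the NF-kB motif just before their start, in capitals here.
IFNB1 (chr9:21077993-21078013, minus strand, 71 to 51 bases before the start): aaagtGGGAAATTCCtctgaa
CXCL1 (chr4:73869309-73869331, plus strand, 84 to 62 bases before the start): actccGGGAATTTCCCtggcccg
CXCL2 (chr4:74099256-74099278, minus strand, 83 to 61 bases before the start): gctccGGGAATTTCCCtggcccg
CXCL3 (chr4:74038751-74038773, minus strand, 84 to 62 bases before the start): gctccGGGAATTTCCCtggcccg
The capitals of the 3 paralogs are the same letters, and each holds 2 overlapping matches. The motif, searched on both strands, was in 14 of 29 promoters of the chemokine and NF-kB lists (48.28%), in 6.58% of all tested genes and in 5.72% of all promoters in the table. Its share did not step with the size of the decrease. It was 8.62% (5 of 58) at -1 or below, 12.07% (21 of 174) between -1 and -0.5 and 8.96% (64 of 714) among smaller called decreases. Genes not called held it in 6.43% and genes called higher in 4.84%.

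Immediate early genes gave the single largest decrease. ARC, which in neurons is induced by synaptic activity, was at 17.5 and 19 FPKM in the knockdown control, 0.150 and 0.190 in the knockdown and 0.281 and 0.239 in the vector libraries. These values rest on 1836 and 2064 reads in the control libraries and 16 and 20 in the knockdown libraries. The control libraries alone carried ARC over the filter. ARC fell by 4.04 ± 0.09 (adjusted p = 1.24e-10), and the knockdown did not pass against the vector (-0.11 ± 0.09, adjusted p = 0.326). FOS was at 16.2 and 16.02 FPKM in the control, 2.33 and 2.52 in the knockdown and 0.916 and 1.303 in the vector libraries. Its paralog FOSB was at 10.9 and 12.3, 1.78 and 2.04, and 0.981 and 1.06. In both genes the knockdown libraries were above both vector libraries, though much closer to them than to the control. FOS fell by 2.32 ± 0.10 (adjusted p = 2.17e-08) and FOSB fell by 2.12 ± 0.09 (adjusted p = 3.68e-08). Of 14 AP-1 genes tested 10 were lower, with a median of -0.53, and none was higher. ATF3, a stress-induced member, fell by 1.79 ± 0.06 from 87.4 and 85.5 to 24.2 and 24.5 FPKM. MAFF fell by 1.26 ± 0.07, and JUN fell by 0.71 ± 0.04 to 55.9 and 57.6 FPKM beside 56.02 and 57.4 in the vector libraries. JUND (-0.02 ± 0.06) and JDP2 (0.02 ± 0.09) were not called.

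The other immediate early genes were lower in 18 of 28 and higher in 2, ID1 and ID3, which are inhibitors of bHLH factors. EGR1, a zinc finger factor, was at 56.6 and 59.3 FPKM in the control, 28.97 and 26.6 in the knockdown and 5.29 and 3.98 in the vector libraries. All 3 groups were apart, and the knockdown lay between the other groups. EGR1 fell by 1.04 ± 0.10 against the control (adjusted p = 3.66e-05) and was higher than the vector by 2.36 ± 0.10 (adjusted p = 1.46e-08). EGR4 was at 4.89 and 5.88 FPKM in the control and 0.362 and 0.228 in the knockdown (reads 387 and 481 in the control, 29 and 18 in the knockdown) and fell by 2.3 ± 0.11 (adjusted p = 7.5e-08). The control libraries alone carried EGR4 over the filter. Its relatives EGR2 and EGR3 were below the filter and not tested. EGR2 had 259 and 200 reads in the control libraries and 41 and 39 in the knockdown libraries, and EGR3 had 91 and 86 in the control and 1 and 7 in the knockdown. IER2 and CSRNP1 fell by 0.69 and 0.94 and remained above the vector by 0.89 and 0.82. KLF4 fell by 1.01 ± 0.05 to 15.6 and 15.7 FPKM, under the vector's 20.2 and 19.03. IER3, IER5L and SRF were not called (log2 fold changes -0.04, 0.02 and -0.06). Feedback inhibitors of the MAPK pathway were lower in 3 of 15 (20%, beside 10.9% of all genes). These were DUSP5, DUSP10 and DUSP14, which fell by between 0.34 and 0.67.

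**Figure D3:**
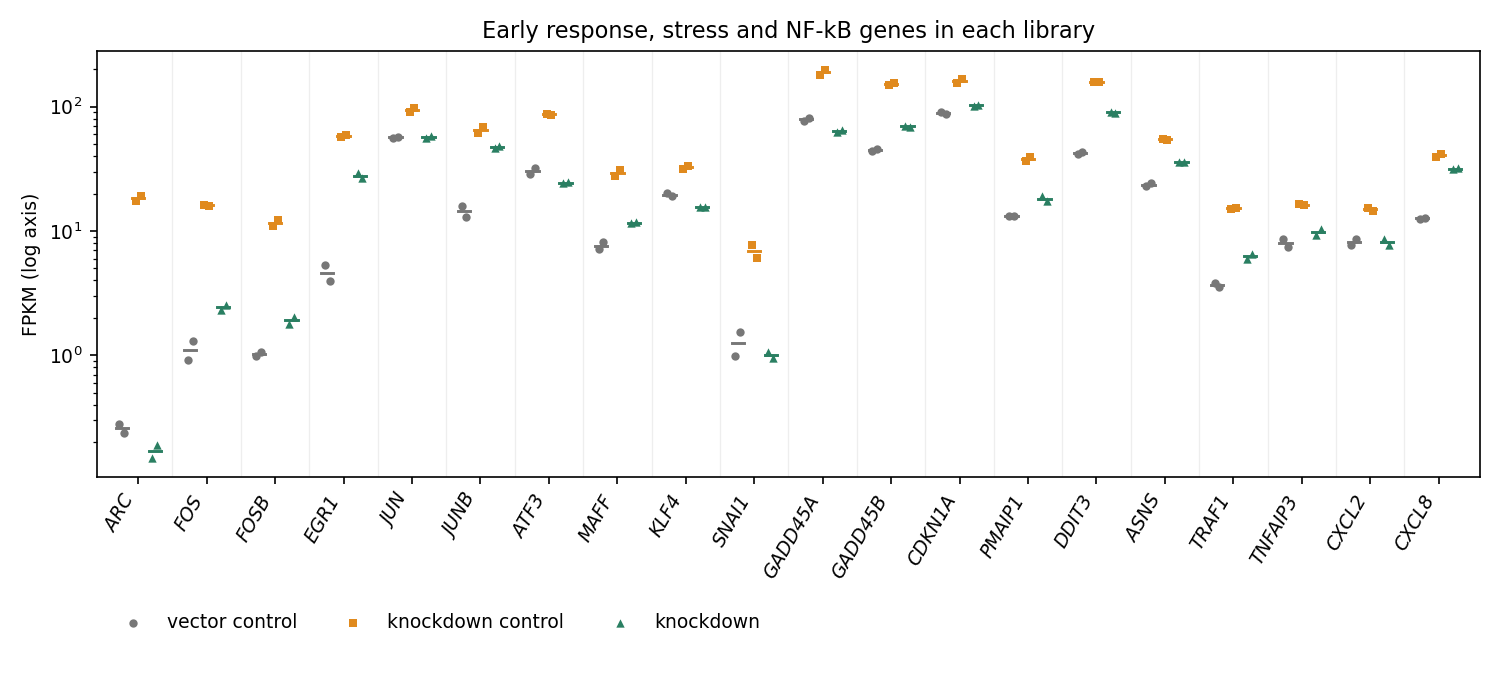
FPKM on a log axis of 20 early response, stress and NF-kB genes in each vector control (grey circles), knockdown control (orange squares) and knockdown (green triangles) library; bars are means of 2 libraries. The knockdown control is highest throughout, and the knockdown sits near the vector level in ARC and JUN but well above it in EGR1 and CXCL8.

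Serum and calcium signals reach early genes through the CArG box, bound by SRF, and the CRE, bound by CREB and ATF factors. EGR1 and VGF, the gene of a secreted neuropeptide precursor, show them in capitals.
EGR1 (chr5:138465369-138465411, plus strand, 110 to 68 bases before the start): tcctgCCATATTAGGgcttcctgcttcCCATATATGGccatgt
VGF (chr7:101165634-101165654, minus strand, 85 to 65 bases before the start): gaacatTGACGTCAatggggc
EGR1 holds 2 CArG boxes in this stretch and VGF the full CRE, TGACGTCA. VGF was at 11.7 and 11.4 FPKM in the control, 2.36 and 1.998 in the knockdown and 2.05 and 1.92 in the vector libraries and fell by 1.98 ± 0.10 (adjusted p = 7.61e-08). The CRE was in 6.9% of tested promoters with a log2 fold change of -1 or below (4 of 58), in 3.58% of all tested and in 1.98% of all promoters. The CArG box was in 3.45% (2 of 58), 1.01% and 1.29% of the same sets. The AP-1 motif TGANTCA was in 1.72% of that steepest class, in 14.37% (25 of 174) of the class between -1 and -0.5 and in 4.28% of all tested.

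Of 30 p53 targets 16 were lower and 1 was higher, CCNG1. GADD45A, which arrests the cycle after DNA damage, was at 181 and 196 FPKM in the control, 62.1 and 65.2 in the knockdown and 76.2 and 81.4 in the vector libraries. GADD45B was at 149.9 and 155, 70.3 and 68.97, and 43.9 and 45.9. They fell by 1.55 ± 0.05 (adjusted p = 1.49e-09) and 1.12 ± 0.04 (adjusted p = 1.65e-08). CDKN1A (p21), the cyclin-dependent kinase inhibitor, was at 154 and 167 FPKM in the control, 102 and 103 in the knockdown and 89.6 and 86.7 in the vector libraries and fell by 0.64 ± 0.04 (adjusted p = 1.21e-06). The pro-death genes PMAIP1 (NOXA) and BBC3 (PUMA) fell by 1.02 ± 0.07 and 0.63 ± 0.07, and both stayed above the vector. BCL2A1, a pro-survival NF-kB target, fell by 1.2 ± 0.09 from 18.6 and 22.02 to 7.796 and 8.701 FPKM. In the BCL2 family as a whole 7 of 17 were lower and 1, BNIP3L, was higher.

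The integrated stress response, in which phosphorylated eIF2 raises ATF4 and its targets, was lower in 16 of 27 genes and higher in 1, SLC7A11. DDIT3 (CHOP) was at 156 and 157 FPKM in the control, 90.3 and 88.9 in the knockdown and 41.7 and 43.1 in the vector libraries, so the knockdown lay between the other groups. It fell by 0.80 ± 0.05 against the control (adjusted p = 4.43e-07) and was higher than the vector by 1.06 ± 0.05 (adjusted p = 2.02e-08). ASNS, asparagine synthetase, followed the same order at 54.8 and 53.9, 35.6 and 36.1, and 22.99 and 24.1 FPKM. PPP1R15A (GADD34), which reverses the phosphorylation, fell by 0.81 ± 0.03 and ended below the vector (115 and 114 FPKM against 158 and 157). Cytosolic tRNA synthetases known as ATF4 targets fell by small amounts, with YARS1 at -0.36, GARS1 at -0.34 and CARS1 at -0.41. Across the 20 synthetases 8 were lower and 3 were higher. Without knockdown replicate 1 the counts were 5 and 1, and without the second replicate of either group none was higher.

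Several genes outside these lists joined the 25 largest decreases. LOC105376335, an uncharacterised locus, was at 13.6 and 14.7 FPKM in the control, 1.11 and 0.485 in the knockdown and 0 and 0.147 in the vector libraries, and fell by 3.09 ± 0.14 (adjusted p = 5.25e-08). The control libraries alone carried this locus over the filter. RRAD, a Ras-like GTPase, was at 9.78 and 8.504, 1.001 and 0.975, and 0.989 and 0.720 and fell by 2.35 ± 0.10 (adjusted p = 3.68e-08). Its knockdown and vector libraries lay between 0.720 and 1.001 FPKM, so the control libraries may have carried RRAD over the filter. CLDN6, an embryonic claudin, went from 229 and 209 reads in the control libraries to 10 and 2 in the knockdown libraries. With so few knockdown reads, CLDN6 too may have passed the filter through the control, which would set the direction of its difference. SNAI1, a repressor of E-cadherin, was at 7.66 and 6.07 FPKM in the control, 1.06 and 0.955 in the knockdown and 0.991 and 1.54 in the vector libraries, and fell by 1.96 ± 0.13 (adjusted p = 8.76e-07). Its target CDH1 was at 1.44 and 0.841 FPKM in the control and 1.41 and 1.78 in the knockdown and was not called (adjusted p = 0.154). ZNF554, MMP25 and the growth factor PGF fell by 1.84, 1.8 and 1.8. Of the EMT list as a whole 4 of 21 were lower and 1 higher. CCN2, a YAP and TGF-beta target, fell by 0.77 ± 0.07 from 22.6 and 19.5 FPKM to 11.8 and 11.98, beside 12.02 and 10.98 in the vector libraries. YAP/TEAD pathway genes were lower in 8 of 24 and higher in 2, the factors TEAD1 and TEAD2 (8.3%, beside 11.3% of all genes).

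Among histone genes 8 of 20 tested were lower and 2, H2AZ2 and H3-3A, were higher (10%, near the 11.3% of all genes). H2AJ, a variant H2A, was at 289 and 313 FPKM in the control, 191 and 190.3 in the knockdown and 113 and 120 in the vector libraries and fell by 0.65 ± 0.05 (adjusted p = 3.92e-06). H4C8 and H2BC21 fell by 1.09 ± 0.11 and 0.82 ± 0.09. Replication-dependent histone genes are near-identical copies of each other, and their transcripts lack the poly(A) tail that many library kits select. The sources used here do not say which RNA selection was used, so these values are uncertain.

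Mitosis genes were among the increases. Of 46 genes of mitotic entry, spindle and cytokinesis 35 were higher, beside 11.3% of all genes tested, and none was lower, with a median of 0.27. TOP2A, topoisomerase II alpha, was at 56.6 and 51.5 FPKM in the knockdown control, 85.2 and 83.3 in the knockdown and 131 and 137 in the vector libraries. ECT2, which sets the cleavage furrow, was at 24.5 and 22.4, 35.4 and 33.97, and 56.5 and 58.4. In both the knockdown lay between a low control and a high vector level. TOP2A rose by 0.63 ± 0.05 against the control (adjusted p = 2.76e-06) and was lower than the vector by 0.66 ± 0.05 (adjusted p = 3.23e-07). For ECT2 the values were 0.55 ± 0.05 and -0.71 ± 0.05. CEP55 and NUSAP1 rose by 0.47 ± 0.04 and 0.38 ± 0.04 and did not pass against the vector (adjusted p = 0.325 and 0.981). CCNB1 (cyclin B1) rose by 0.29 ± 0.03 to 179 and 183 FPKM, above both the control (148 and 148) and the vector (133 and 137).

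Kinetochore and checkpoint genes rose in 23 of 42 and fell in 1, MAD1L1, and 15 rose without knockdown control replicate 1 or without knockdown replicate 2. CENPF, which tethers kinetochores to microtubules, was at 7.26 and 7.03 FPKM in the control, 12.6 and 11.8 in the knockdown and 37.6 and 38.1 in the vector libraries. It had the second largest called increase, 0.70 ± 0.05 (adjusted p = 2.81e-06), and was still below the vector (-1.56 ± 0.05, adjusted p = 2.67e-09). KNL1, the checkpoint scaffold, was at 1.75 and 1.55, 2.96 and 3.01, and 5.18 and 5.04 and rose by 0.59 ± 0.08 (adjusted p = 0.000307). Of 17 kinesins 13 rose and none fell: 12 of the 13 that act in mitosis, and 1, KIF5B, of 4 transport kinesins. KIF18A, which damps chromosome movement, was at 4.51 and 4.15 FPKM in the control, 7.16 and 6.9 in the knockdown and 12.8 and 12.3 in the vector libraries, and rose by 0.59 ± 0.06 (adjusted p = 7.17e-05). KIF20A rose by 0.32 ± 0.04 and ended above the vector by 0.22. Cohesin, condensin and other SMC genes rose in 17 of 24 and fell in none, and 11 rose without knockdown replicate 2. SMC2 was at 5.05 and 4.63 FPKM in the control, 8.29 and 7.38 in the knockdown and 15.7 and 15.9 in the vector libraries, SMC4 at 21.2 and 22.4, 28.7 and 27.6, and 56.8 and 61.3, and RAD21, the cohesin ring's kleisin, at 41.1 and 38.2, 52.8 and 53.4, and 65.7 and 65.7. All 3 ran in the order control, knockdown, vector. Against the vector 17 of the 24 were lower and 1 was higher, beside 28.8% and 34.1% of all genes tested.

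**Figure D4:**
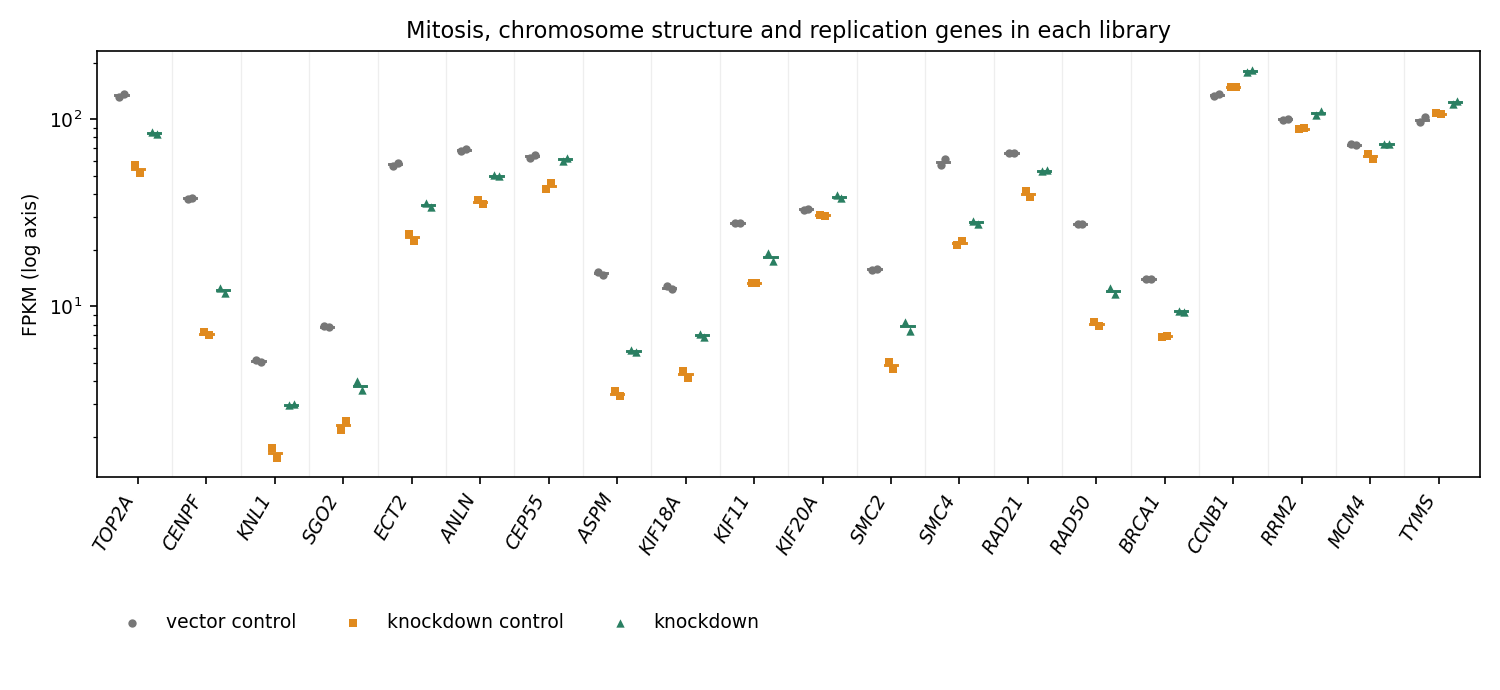
FPKM on a log axis of 20 mitosis, chromosome structure and replication genes in each vector control (grey circles), knockdown control (orange squares) and knockdown (green triangles) library; bars are means of 2 libraries. The knockdown lies above the control in each gene, below the vector in genes such as CENPF and SMC4, at the vector level in MCM4 and above it in CCNB1 and TYMS.

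The cell cycle genes homology region, TTTGAA, and the CCAAT box are the usual elements of promoters active in G2 and mitosis. The stretches of 3 members show both in capitals, on either strand (TTCAAA and ATTGG on the other).
KIF18A (chr11:28108157-28108206, minus strand, 50 to 1 bases before the start): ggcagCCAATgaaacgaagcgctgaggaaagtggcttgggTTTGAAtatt
DLGAP5 (chr14:55191663-55191727, minus strand, 142 to 78 bases before the start): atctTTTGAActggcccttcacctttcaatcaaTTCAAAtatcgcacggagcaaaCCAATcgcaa
HMMR (chr5:163460558-163460621, plus strand, 74 to 11 bases before the start): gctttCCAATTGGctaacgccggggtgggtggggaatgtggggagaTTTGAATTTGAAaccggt
DLGAP5, a microtubule stabiliser, and HMMR, a spindle protein, rose by 0.49 ± 0.05 and 0.51 ± 0.07. In HMMR the 2 TTTGAA runs are adjacent, and the CCAAT and ATTGG letters overlap. TTTGAA was in 48 of 90 promoters of the kinetochore, mitotic entry and kinesin lists (53.33%), in 15.32% of genes called higher, in 8.68% of genes not called and in 15.43% of all promoters in the table. CCAAT was in 66.67% of these lists' promoters, in 41.21% of genes called higher and in 36.88% of all tested. TTTGAA is poor in G and C, as are the transcripts of the genes called higher (median GC content 41.24%).

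Of 49 replication genes 20 rose and none fell, with a median of 0.16, and 12 rose without knockdown control replicate 1, 10 without knockdown control replicate 2, 11 without knockdown replicate 1 and 6 without knockdown replicate 2. RRM2, the small subunit of ribonucleotide reductase, was at 88.6 and 89.5 FPKM in the control, 105 and 110.1 in the knockdown and 99.4 and 100.4 in the vector libraries, a rise of 0.27 ± 0.04 (adjusted p = 0.000473). The helicase subunit MCM4 rose by 0.21 ± 0.04 and differed from the vector by 0.01 ± 0.04. Of 51 repair genes 18 rose and 2, ERCC1 and MDC1, fell. After correction for transcript length and GC content 10 rose, as they did without knockdown control replicate 2 or knockdown replicate 2, and 7 rose without knockdown replicate 1. RAD50, of the break-sensing MRN complex, was at 8.28 and 7.89 FPKM in the control, 12.5 and 11.6 in the knockdown and 27.7 and 27.6 in the vector libraries. It rose by 0.52 ± 0.06 (adjusted p = 6.59e-05). BRCA1 and FANCI rose by 0.39 ± 0.06 and 0.45 ± 0.05.

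Transcript length and base composition moved with the differences. Across 10636 genes the log2 fold change had a Spearman correlation of 0.27 with transcript length and of -0.45 with GC content, and these genes share the same 4 libraries. Called-higher transcripts had a median length of 4585 bases, called-lower transcripts 2732.5 bases and 55.3% GC. After a per-library correction for both properties 975 genes were higher and 844 lower. With it 38 genes of mitotic entry, 19 of the kinetochore, 13 kinesins and 16 of cohesin and condensin were called higher, and 13 of the IFIT, OAS, MX and IFI genes lower. In other lists the count moved by more: nuclear pore genes called higher went from 12 to 6.

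Cholesterol synthesis genes were higher in 11 of 25, beside 11.3% of all genes, and lower in none, with a median of 0.14. The count was 7 without knockdown control replicate 1, 6 without knockdown replicate 1 or without the filter on low genes, and 4 without the second replicate of either group. Against the vector 24 of the 25 were higher, beside 34.1% of all genes tested. MSMO1, a sterol demethylase, was at 49.7 and 53.1 FPKM in the control, 65.99 and 66.1 in the knockdown and 22.3 and 24.5 in the vector libraries, a rise of 0.36 ± 0.05 over the control (adjusted p = 0.000761) and of 1.46 ± 0.05 over the vector (adjusted p = 5.06e-09). FDFT1, squalene synthase, was at 90.1 and 90.98, 106 and 103, and 36.2 and 36.4 and rose by 0.21 ± 0.04. Both oligonucleotide groups were thus far above the vector, and the knockdown was the higher of them. Fatty acid synthesis and desaturation genes rose in 11 of 19. The count was 7 without knockdown control replicate 1 or with the length and GC correction, 6 without the second replicate of either group and 4 without knockdown replicate 1. SCD, the delta-9 desaturase, was at 342 and 343 FPKM in the control, 447 and 472 in the knockdown and 267 and 259 in the vector libraries (a rise of 0.42 ± 0.04, adjusted p = 1.31e-05). FADS1 and FADS2 rose by 0.33 ± 0.04 and 0.25 ± 0.03.

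Genes of glucose use and of the NRF2 response gave the largest called increase. SLC2A3 (GLUT3), a glucose transporter, was at 15.6 and 16.4 FPKM in the control, 27.1 and 26.6 in the knockdown and 10.3 and 11.03 in the vector libraries. It rose by 0.71 ± 0.06 (adjusted p = 1.43e-05) and was above the vector by 1.26 ± 0.06. PDK4, a pyruvate dehydrogenase kinase, rose by 0.59 ± 0.05 from 11.7 and 11.3 to 17.7 and 17.9 FPKM and stayed under the vector (31.02 and 30.2). The regulatory enzyme PFKFB4 and the peptide hormone gene ADM fell by 0.73 ± 0.08 and 0.49 ± 0.04. In the glycolysis and hypoxia list 9 of 35 rose (25.7%, beside 11.3% of all genes) and 4 fell (11.4%, near the 10.9% of all genes). With knockdown replicate 2 or either control library left out 5 rose, and without knockdown control replicate 1 there were 2 that fell. Of 37 NRF2 targets 18 rose and 2, SQSTM1 and HMOX1, fell, and 11 rose without knockdown control replicate 1 and 9 without knockdown replicate 2. GCLC, the rate-limiting enzyme of glutathione synthesis, was at 53.7 and 49.3 FPKM in the control, 74.3 and 75.4 in the knockdown and 78.6 and 78.6 in the vector libraries. It rose by 0.53 ± 0.05 (adjusted p = 9.49e-06). Among chaperones 9 of 32 rose (28.1%) and 3 fell (9.4%, near the share of all genes), or 15 rose with TPM scaling. HSP90AA1, the inducible HSP90, rose by 0.52 ± 0.04 from 495 and 469 to 714 and 673 FPKM (adjusted p = 2.81e-06), with 719 and 748 in the vector libraries, and HSP90B1 of the endoplasmic reticulum by 0.37 ± 0.05.

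Of 78 cytosolic ribosomal protein genes 47 were lower and none was higher, with a median of -0.14, and 33 were lower and 2 higher after length and GC correction. The count of lower genes was 30 with quantile normalization, 26 without the filter on low genes, 23 without knockdown control replicate 2 and 18 without knockdown replicate 2. RPS12 was at 1523 and 1558 FPKM in the control, 1267 and 1288 in the knockdown and 949 and 992 in the vector libraries (log2 fold change -0.27 ± 0.03, adjusted p = 0.000183). RPS16 was at 2869 and 2886, 2477 and 2424, and 1795 and 1891. The knockdown values were below the control and above the vector. Against the vector 72 of the 78 were higher and none was lower, beside 34.1% and 28.8% of all genes tested. Of 75 nuclear-encoded respiratory chain genes 11 were lower, a share near that of all genes, and 1 was higher. Ribosomal protein genes have many processed pseudogenes, and the handling of shared reads is not stated, so single members are uncertain.

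Among splicing genes the SR factors stayed near the background of 11.3% higher and 10.9% lower. Of 13 SR factors SRSF11 rose and SRSF8 fell, and the other 11 were not called. Of 34 U2AF and SF3 splice site factors 4 rose and 1 fell, also near that background, with 7 higher under TPM scaling and 2 without knockdown control replicate 2, knockdown replicate 1 or the filter on low genes. SRSF11 was at 10.6 and 10.4 FPKM in the control, 12.7 and 12.6 in the knockdown and 20.3 and 20.3 in the vector libraries. SRSF1 was at 86.7 and 87.3, 90 and 94.2, and 100.4 and 98.8 and was not called (adjusted p = 0.155). Of 25 SR protein kinases and nuclear speckle genes 8 rose and none fell. The count was 5 without knockdown replicate 2 or the filter on low genes, 4 without knockdown replicate 1 or knockdown control replicate 2 and 3 with the length and GC correction. LUC7L3, a U1 partner, was at 16.3 and 14.2 FPKM in the control, 21.7 and 19.7 in the knockdown and 43.9 and 42.2 in the vector libraries, a rise of 0.42 ± 0.07 over the control (adjusted p = 0.00113) and a deficit of 1.02 ± 0.07 to the vector (adjusted p = 1.88e-07). Against the vector 23 of the 25 were lower, beside 28.8% of all genes tested. Of 36 hnRNP, PTB and FET genes 10 rose, but 6 without knockdown control replicate 1, 2 without its second replicate and 3 without either knockdown library or with the length and GC correction.

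AFAP1, the sense partner of AFAP1-AS1, was at 10.9 and 11.3 FPKM in the control, 8.88 and 10.3 in the knockdown and 9.82 and 9.099 in the vector libraries. The knockdown libraries were below both control libraries, and the difference of -0.20 ± 0.07 did not pass (adjusted p = 0.0692). The sources used here do not say whether counting used strand, and without it reads of AFAP1 and of an antisense transcript cannot be told apart. None of 10 tested genes at this locus or in the AFAP1 family was called, beside 22.2% of all genes tested. AXIN2, which scaffolds beta-catenin destruction and is itself a Wnt target, was at 1.71 and 1.21 FPKM in the control, 2.22 and 2.63 in the knockdown and 2.98 and 3.03 in the vector libraries. It rose by 0.48 ± 0.11 (adjusted p = 0.00711), a call lost when the second replicate of the control (adjusted p = 0.0703) or of the knockdown (adjusted p = 0.0704) was left out. The co-receptor LRP6 rose by 0.43 ± 0.08 from 6.59 and 6.31 to 8.53 and 9.63 FPKM. Altogether 6 of 21 destruction complex and Wnt target genes rose, 28.6% beside 11.3% of all genes, and MYC fell. Those that rose were 2 without knockdown control replicate 2, none without knockdown replicate 2, and 3 with the length and GC correction, without the filter on low genes or with a filter at 5 FPKM. Of 19 ligands, receptors and Dishevelled genes 2 rose, LRP6 and FZD6, a share of 10.5% and near that of all genes.

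Several genes named above as the exceptions of their list rest on all libraries. With 1 library left out their adjusted p rose to between 0.0523 and 0.211. CCNG1 and TEAD1 lost the call without the second replicate of either group, TEAD2 and TBK1 without knockdown control replicate 2 or knockdown replicate 1, and SLC7A11, H2AZ2, MAD1L1 and ERCC1 without knockdown control replicate 1 or knockdown replicate 2. MYC kept it only without knockdown control replicate 2. CALR, PDIA3, ID3, H3-3A, MDC1, SRSF8 and FZD6 lost it with any of the 4 left out. SRSF11 lost it with the length and GC correction alone.

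Gene list medians lay on both sides of the median of all genes, 0.02, and spread further below it than above.

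**Figure D5:**
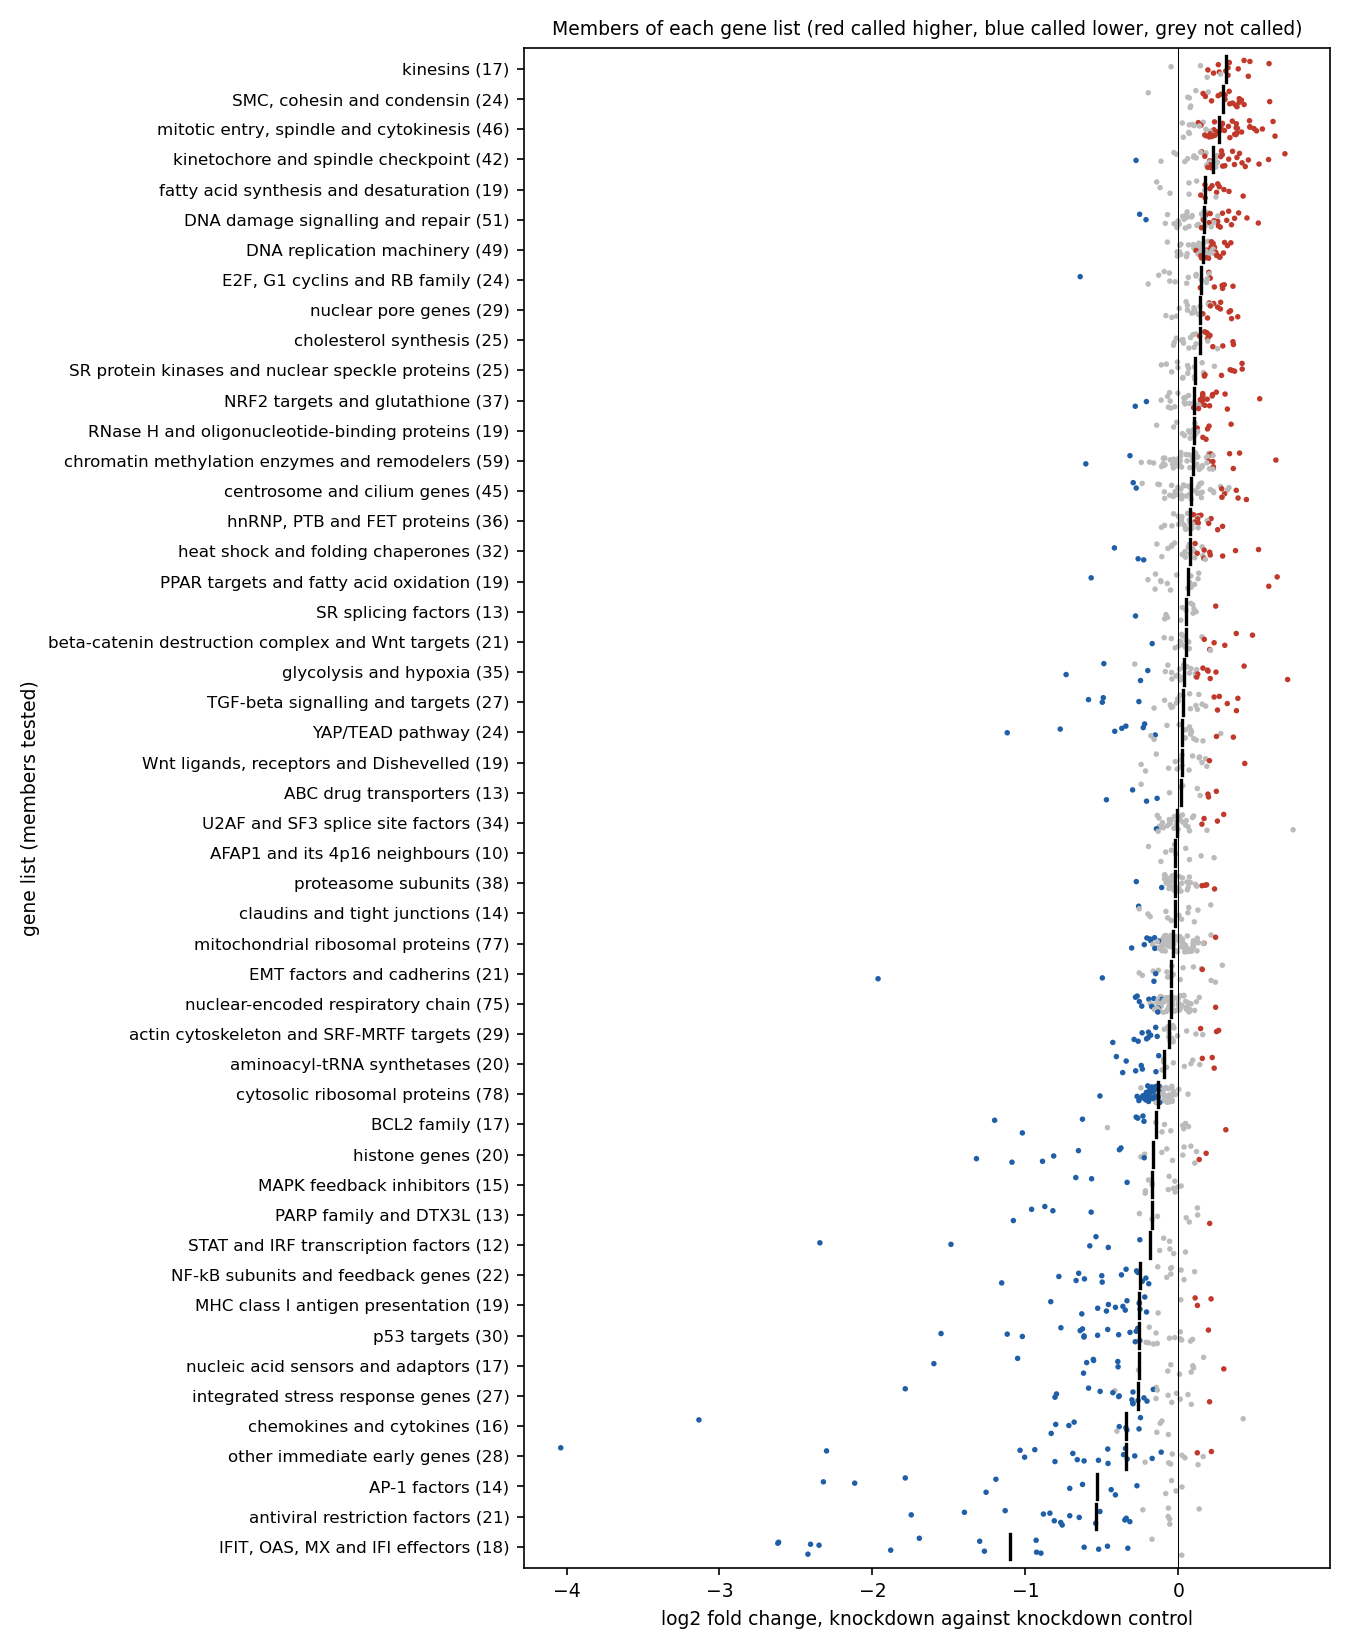
Log2 fold change, knockdown against knockdown control, of each tested member (points) of the 50 gene lists with at least 10 tested members, ordered by median (black bars), with the number tested in brackets. Red members were called higher, blue lower and grey neither; kinesins lie highest with a median of 0.31 and the IFIT, OAS, MX and IFI genes lowest with -1.10.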

How the data were processed

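RNA-seq of A549 cells was deposited as 1 table of FPKM values for 17056 genes in 8 libraries. The authors' steps name HISAT2, featureCounts, HTSeq and R 3.2.0 with the GRCh38 (hg38) build, per the submitters' processing notes, and the sources used here do not give strand use. No column was left out. AFAP1-AS1 is not reported here. Low FPKM values stepped by whole reads, which gave reads for all 17056 genes within a tolerance of 0.02 reads (99.6% exact for 999 genes on simulated data), so depth per library is known.

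The 10648 genes that averaged 1 FPKM or more over the 8 libraries were tested with limma 3.58.1 in R 4.3.3 on log2(FPKM + 1), with a mean-variance trend, all 4 groups in the fit and 4 residual degrees of freedom. P-values were adjusted by Benjamini-Hochberg over all genes tested, at 0.05. The fit was tested on simulated data. The second comparison used the same fit against the vector control.

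The 56 gene lists and the members named were chosen with earlier results of these data known. Named genes were AFAP1, AXIN2, the 25 largest decreases and increases without overlap between groups, in each list the 8 smallest p (all where 12 or fewer were tested), up to 4 called members moving against their list, and members of the interferon, chemokine, NF-kB, AP-1 and immediate early lists. IFNL2, IFNL3, IFNE, EGR2, EGR3, STING1, PTPRC and SFTPB are listed members below the filter. Sequences came from RefSeq promoters (GRCh38.p14), and transcript length and GC content from GENCODE for 99.9% of genes, with a loess span of 0.3 in the correction. Alternatives changed the pseudocount, filter, scaling, libraries, replicate block, moderation, unit (voom on recovered reads), and length and GC content.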

Additional observations from a re-analysis of the deposited data

How the results depend on the processing

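Depth was alike across libraries, and 2 libraries a group limit the precision. With 1 library left out the genes called against the knockdown control numbered between 1176 and 1610, those called higher between 493 and 769 and those called lower between 683 and 841. The other fits gave between 1819 and 2898. Requiring a log2 fold change of at least 1 left 76 genes, 0 higher and 76 lower, and 172 against the vector control. Replicate numbers did not pair the libraries: deviations of same-numbered libraries correlated between -0.06 and 0.06. A replicate block gave 2315 calls against the knockdown control and 6707 against the vector control. Of 505 named genes 400 were called, 253 of them in every alternative that tested them. After length and GC correction 4 called genes changed sign and lost the call: HNRNPA3 (-0.011), MRPL36 (0.027), MRPL38 (0.0131) and UQCRH (0.0129). Of 105 genes not called 34 changed sign in at least 1 alternative, as did the medians of 7 lists under another scaling, each at most 0.055 in size in the main comparison. At an unadjusted p below 0.05 there were 3776 genes.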

Other observations

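JMJD1C, a member of the histone demethylase family, was at 1.78 and 1.91 FPKM in the knockdown control, 3.44 and 3.41 in the knockdown and 9.57 and 9.45 in the vector libraries, a rise of 0.64 ± 0.07 (limma adjusted p = 8.16e-05). KDM6B, which demethylates histone H3 lysine 27, ran the opposite way at 9.79 and 10.04, 6.38 and 5.98, and 3.65 and 3.38, a fall of 0.61 ± 0.07 (adjusted p = 0.000167). In both genes the knockdown lay between the other groups. Of 59 chromatin enzymes and remodelers 10 rose (16.9%, beside 11.3% of all genes) and 2, KDM6B and CHD2, fell (3.39%, beside 10.9%). The number that rose was 17 with TPM scaling, 19 with voom, 6 without knockdown control replicate 1, 5 without its second replicate and 4 without knockdown replicate 2. Of 29 nuclear pore genes 12 rose and none fell, and 7 rose without the second replicate of either group and 6 with the length and GC correction. TPR, of the nuclear basket, rose by 0.35 ± 0.05 and RANBP2, of the cytoplasmic filaments, by 0.39 ± 0.07, and both stayed below the vector (log2 fold changes -1.37 and -1.27).

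Actin cytoskeleton genes were lower in 10 of 29 and higher in 3 (10.3%, near the 11.3% of all genes), with 6 lower when knockdown replicate 2 was left out. ZYX (zyxin), a focal adhesion protein, was at 69.8 and 70.5 FPKM in the control, 50.4 and 53.3 in the knockdown and 48.7 and 46.3 in the vector libraries and fell by 0.43 ± 0.05 (adjusted p = 7.21e-05). The tropomyosin genes TPM1 and TPM2 fell by 0.21 ± 0.03 and 0.29 ± 0.04. MMP1, an interstitial collagenase, was almost silent in the control, with 6 and 11 reads, and had 51 and 44 in the knockdown. It was at 2.301 and 1.51 FPKM in the vector libraries, and its call (adjusted p = 0.0211) was lost with any of the 4 libraries left out (adjusted p between 0.0699 and 0.0991).

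Across all genes, filter aside, 438 had reads in both knockdown control libraries and none in either knockdown library, with a median of 3.5 reads in the control. The reverse was seen for 54 genes. Of the 438 genes 33 had at least 10 reads in both control libraries.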
